A study of Triticum aestivum with 18 samples.

Results

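Late embryogenesis abundant (LEA) proteins, dehydrins and cold acclimation proteins of wheat were followed through 24 probe sets of the Affymetrix Wheat Genome Array, of 61179 wheat probe sets in all, which read 18 genes. A probe set is the group of short probes on the array that reports on 1 transcript sequence. The members were the rows of the study's published lists of genes that differed between a treatment and the water control whose gene name held late embryogenesis, dehydrin, cold acclimation, Rab protein, PM 19, PMA1951, WZY or LEA (alone or with a digit). The rule also gave 4 probe sets by identifier, all of which the names had found as well. All 24 stood on the study's list for ABA in the embryo, 20 also on that for ABA in the endosperm, 1 on that for H2O2 in the embryo, and 0 on that for H2O2 in the endosperm. The differences between ABA and the control were therefore used to choose the members, and they are given below as a description, without a test. Seeds of 1 wheat cultivar were imbibed in the dark at 25 °C on filter paper for 16 h in 100 mg/L ABA, in 100 μmol H2O2 or in pure water (CK, the contrast check), and embryo and endosperm were harvested separately as the radicle emerged. This gave 6 groups of 3 arrays: ABA embryo, H2O2 embryo, CK embryo, ABA endosperm, H2O2 endosperm and CK endosperm. All groups share cultivar, time, light and temperature, each treatment was given at 1 dose and 1 time, and the replicates came from independently treated plant material.

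LEA proteins are hydrophilic proteins that accumulate in the embryo as a seed dries at the end of maturation, and again in leaves and crowns under drought, cold or ABA. Dehydrins are the LEA group recognised by a lysine-rich K-segment, and several Rab (responsive to ABA) proteins of cereals belong to them. The hormone ABA (abscisic acid) holds back germination and acts through receptors that inhibit type 2C protein phosphatases, which releases SnRK2 kinases and bZIP factors that bind ABA-responsive promoter elements in front of many LEA genes. H2O2 is a reactive oxygen species that is formed in imbibed seeds and can act as a signal there. The members are described in the order dehydrins and Rab proteins, LEA proteins, membrane proteins, cold acclimation induced protein 2-1 and the WCOR proteins. The last class holds WCOR410b, WCOR410c, WCOR615 and WCOR825, and the WCOR413-like protein is placed with the membrane proteins.

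The values are signals of Microarray Suite 5.0 (MAS5) on a linear scale, scaled by the authors to a common target signal. The members are named by gene and by the transcript each probe set was designed on. Signals of different probe sets are not comparable with each other, because probes differ in how strongly they bind, so only the same probe set is compared between groups. A fold or ratio below is taken from the mean log2 signals of 2 groups after a floor of 10, and ± marks the SE of the fitted log2 difference or, for a mean signal, the SD over 3 arrays. None of the 432 signals of the members lay below that floor, 1 lay below 20, and all 24 members passed the filter of a signal of at least 20 on 3 arrays that kept 57992 probe sets. Of the 24 probe sets, 8 carry the suffix x_at or s_at, which marks probes that also match other transcripts, so near-identical copies, the homoeologous genes of hexaploid wheat included, cannot be told apart in them.

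One array stood apart from the other 17. H2O2 embryo replicate 1 had a median signal of 137.9 over all wheat probe sets, against 59.01 to 81.0 on the other arrays, and 6.79% of its probe sets lay below 10, against 17.5% to 20.8%. The summed signal of 13 probe sets for gliadins and glutenins, storage proteins of the starchy endosperm, was 329 to 433 in ABA embryo, 316 to 2361 in H2O2 embryo and 221 to 465 in CK embryo, against 1467 to 1527 in ABA endosperm, 994 to 1480 in H2O2 endosperm and 843 to 1043 in CK endosperm. The 1 embryo value of 2361 belonged to replicate 1 of H2O2 embryo, while 8 of these 13 probe sets lay below 10 on at least 1 array of that group. WGA2, wheat germ agglutinin of the embryo, gave 16275 to 19087, 2094 to 2256 and 1485 to 1686 in ABA, H2O2 and CK embryo, against 4162 to 4273, 186 to 269 and 273 to 413 in the endosperm groups in the same order. Over all 57992 probe sets, 48.7% of signals on the outlying array lay at least 2-fold from the mean of the other 2 H2O2 embryo arrays, and of the members 6 lay that far below and 2 that far above. The counts over members that rest on H2O2 embryo, and the tissue differences it moved most, are given with and without this array. Leaving it out moved 4 members by more than 0.5 (log2) and the other 20 by at most 0.44, against H2O2 endosperm as against CK embryo. Its part in the H2O2 embryo values of named probe sets outside the members was not tested.

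**Figure D1:**
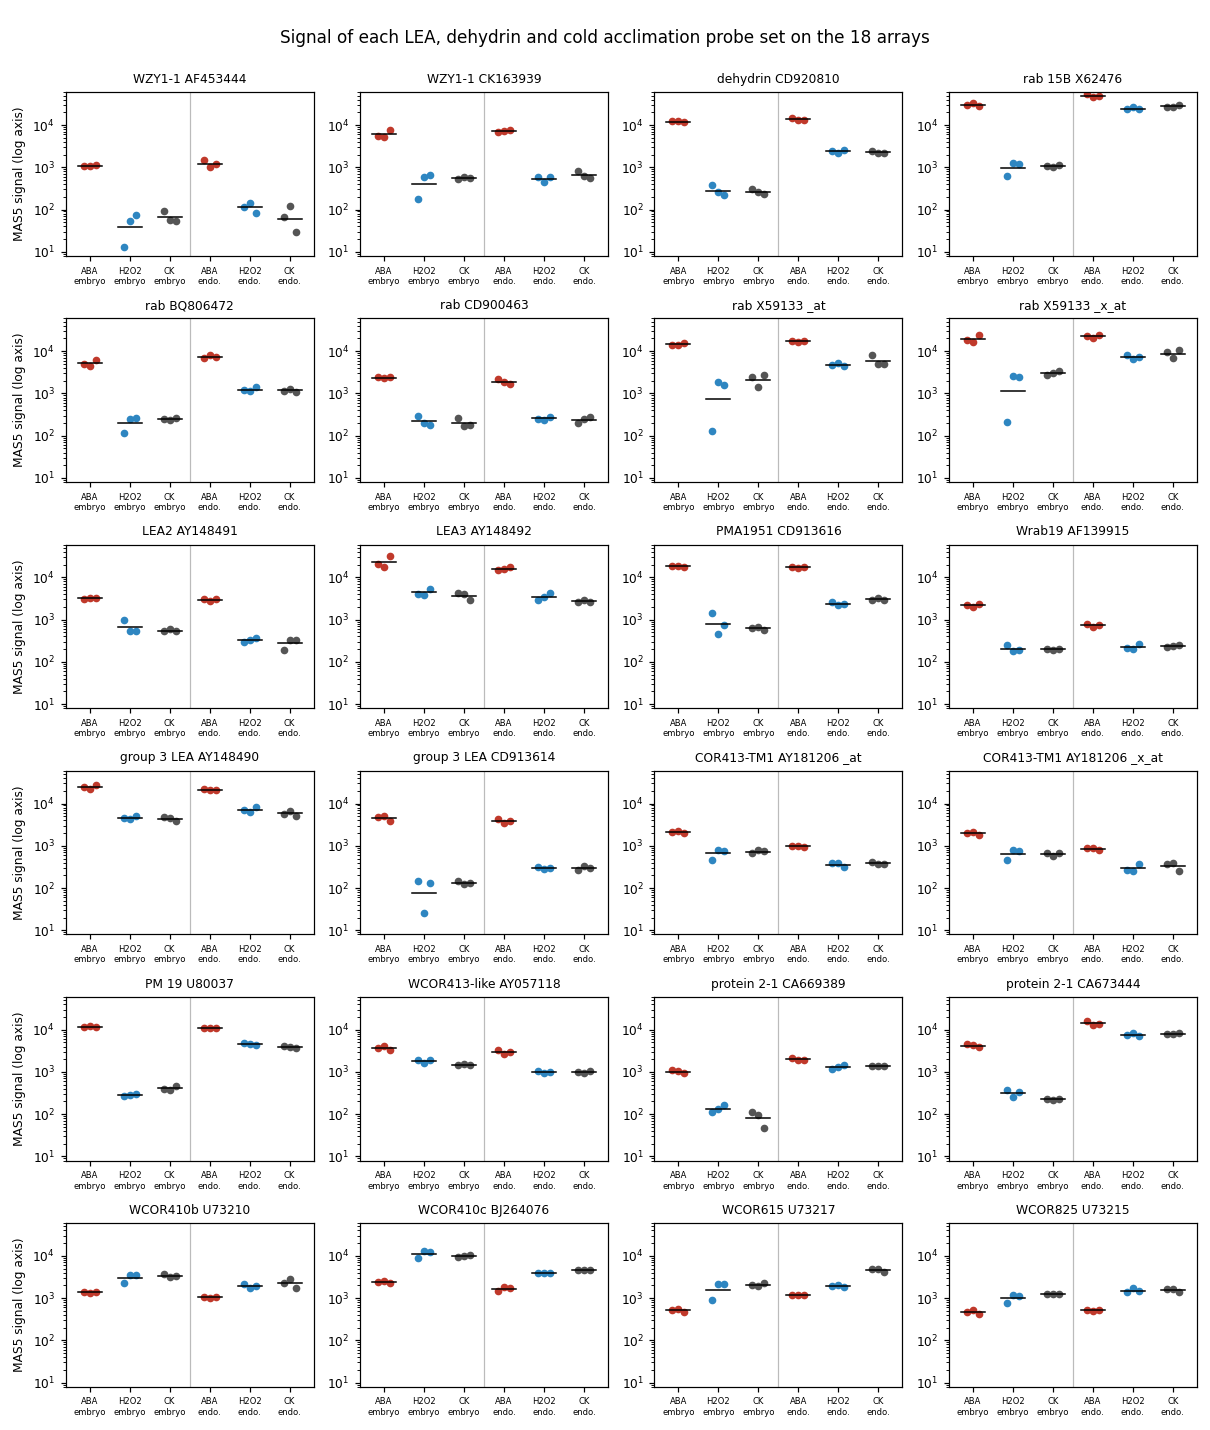
Signal of each of the 24 probe sets on the 18 arrays (log axis), with ABA, H2O2 and CK from left to right in embryo and then in endosperm; points are arrays and bars are means of the log2 signals. In 20 panels the ABA arrays lie above the CK arrays of the same tissue, in embryo and in endosperm. In the 4 WCOR panels of the last row they lie below them.

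Under ABA, 20 of the 24 probe sets, the WCOR413-like protein among them, had higher signals than CK in both tissues. The other 4 (WCOR410b, WCOR410c, WCOR615 and WCOR825) had lower signals in both. Signals are relative to the rest of the array, and in whole tissues a lower share of expressing cells and less transcript per cell cannot be told apart. In every one of the 24 the 3 ABA arrays did not overlap the 3 CK arrays of the same tissue, in embryo as in endosperm. Over all probe sets tested, every ABA array lay above every CK array for 11.6% in embryo and 11.2% in endosperm. Every ABA array lay below every CK array for 16.9% and 15.9%. The median log2 difference of ABA embryo over CK embryo was 3.11 over the members, an 8.62-fold higher signal, and -0.05 over all probe sets tested. In the endosperm it was 1.56, or 2.96-fold, and -0.10 over all probe sets. In the limma fit of all probe sets, 20 members were called higher and 4 lower in ABA embryo than in CK embryo at an adjusted p under 0.05, beside 2.66% and 3.08% of all probe sets (5.74% in either direction). In the endosperm 17 were called higher and 4 lower, beside 3.26% and 3.6% (6.87% in either direction). These contrasts chose the members, and nothing is read from the counts. Of the 20 with higher signals, 16 had the larger log2 difference in embryo and 4 (both WZY1-1 probe sets, LEA2 and the WCOR413-like protein) in endosperm. All 24 members stood on the study's ABA list for the embryo and 20 on that for the endosperm. The choice of members therefore favours a larger difference in embryo, and nothing is read from this split either. It was not counted over all probe sets.

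Under H2O2 most of these probe sets lay near their CK levels. The median log2 difference from CK was -0.05 in embryo and -0.07 in endosperm. Within 0.5 of CK in both tissues lay 17 of the 24, beside 19894 of all 57992 probe sets. Called at an adjusted p under 0.05 were 0 members higher and 1 lower (PM 19) in H2O2 embryo, beside 0.188% and 0.343% of all probe sets (0.531% in either direction), and 0 higher and 1 lower (WCOR615) in H2O2 endosperm, beside 3.08% and 2.38% (5.46% in either direction). Without replicate 1 of H2O2 embryo, 0 were called higher and 1 lower in the embryo, beside 0.55% and 0.815% of all probe sets. The median there was 0.03, and 20 of the 24 lay within 0.5 of CK in both tissues, beside 23824 of 57084 probe sets. The study's lists of these contrasts were part of the choice of members as well, so these values too are a description.

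**Figure D2:**
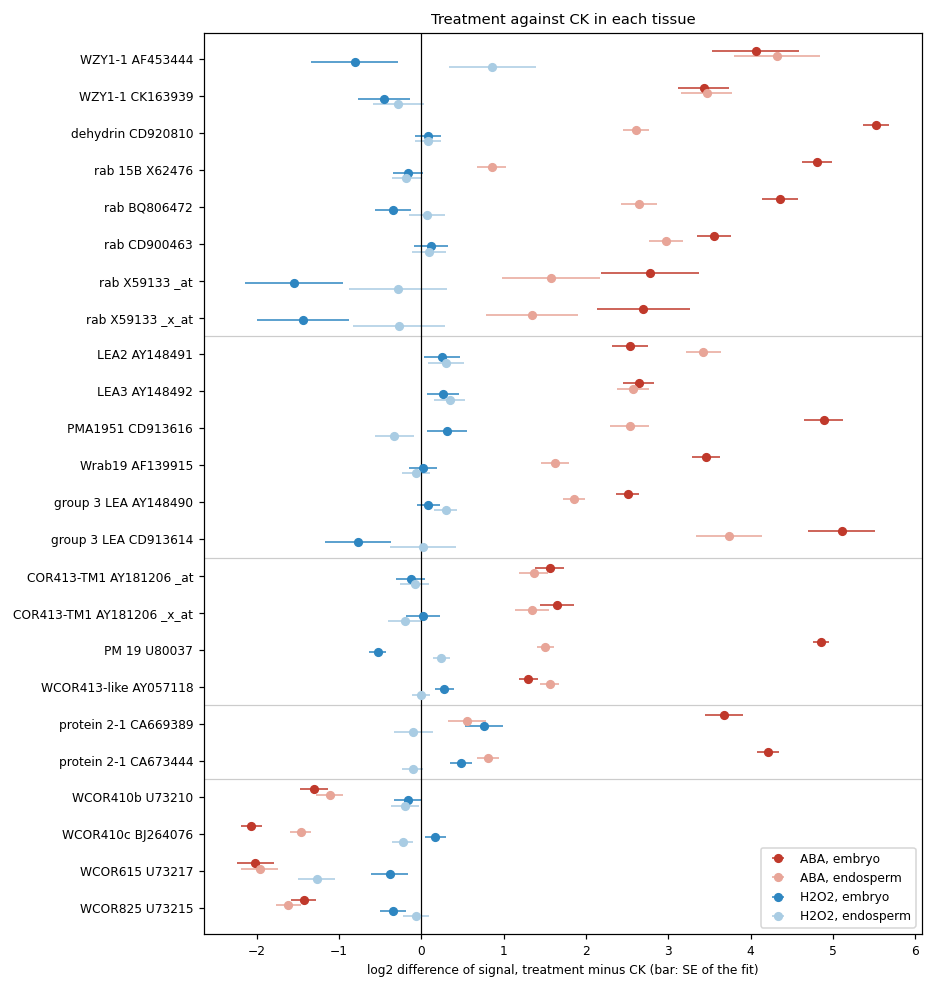
Log2 difference of the signal of each probe set, treatment minus CK, for ABA in embryo and endosperm and for H2O2 in embryo and endosperm; bars are the SE of the fit, and grey lines separate the classes of proteins. ABA values run up to 5.53 in the embryo (dehydrin CD920810) and down to -2.07 (WCOR410c), while most H2O2 values sit near 0.

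Among the dehydrins and Rab proteins, the dehydrin of transcript CD920810 had the largest ABA difference of all members in the embryo. Its embryo signals were 12270.0, 12157 and 11877 under ABA, 385, 254 and 219 under H2O2, and 299, 262 and 231 in CK. Endosperm signals were 14639, 13451 and 13206 under ABA, 2464, 2209.8 and 2507 under H2O2, and 2426, 2173 and 2160.2 in CK. The CK embryo thus held about 0.117 of the CK endosperm signal, while the ABA arrays of both tissues lay close together. The fold of ABA over CK was 46.1 in embryo (log2 5.53 ± 0.16) and 6.11 in endosperm (log2 2.61 ± 0.16). Another probe set of the same design cluster carries no name in the platform annotation and is not a member. It gave mean signals of 9436 ± 267, 274 ± 92.2 and 367 ± 4.52 in ABA, H2O2 and CK embryo and of 12376 ± 244, 3364 ± 111 and 3514 ± 224 in the endosperm groups (SD, n = 3 each). It too was higher under ABA than in CK, by 25.7-fold in embryo and 3.53-fold in endosperm.

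The Rab protein rab 15B (transcript X62476) set the tissues furthest apart among the dehydrins. The embryo arrays gave 30594, 33091 and 28134 under ABA, 633, 1233 and 1185 under H2O2, and 1098, 1035 and 1142 in CK. The endosperm gave 55593, 46066 and 48183 under ABA, 23329, 26109 and 23584 under H2O2, and 26016, 27336 and 29373 in CK. The CK and H2O2 endosperm signals were already high, and the embryo reached 28134 to 33091 only under ABA. The ABA over CK ratio was 28.0 in embryo and 1.81 in endosperm, and the embryo under ABA still lay below the endosperm under ABA on every array.

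The rab gene is read by 4 member probe sets, and they did not report 1 profile. For the first, the at probe set on transcript X59133, the embryo signals were 14087, 14346 and 15251 under ABA, 130.4, 1852 and 1577 under H2O2, and 2428, 1416 and 2742 in CK. Signals of the endosperm were 17905, 16342 and 17406 under ABA, 4605, 5239 and 4516 under H2O2, and 7923, 4956 and 4948 in CK. Replicate 1 of H2O2 embryo lay far below the other 2 arrays of its group. The x_at probe set on the same transcript gave 18670.0, 16930.0 and 23549 in ABA embryo, 214, 2569 and 2503 in H2O2 embryo, and 2691, 3007 and 3359 in CK embryo. The endosperm arrays read 22298, 20808 and 23939 under ABA, 8273, 6544 and 7106 under H2O2, and 9426, 6901 and 10424 in CK. The low value of the same array recurs there. The probe set on BQ806472 gave 4867, 4575 and 6073 in ABA embryo, 116, 247 and 268 in H2O2 embryo, and 254, 241 and 258 in CK embryo. In endosperm tissue the values were 6768, 8113 and 7382 under ABA, 1195, 1130.5 and 1398 under H2O2, and 1174, 1278 and 1093 in CK. The probe set on CD900463, in contrast, gave 2405, 2302 and 2387 in ABA embryo, 295, 197 and 176 in H2O2 embryo, and 260.3, 170.4 and 182 in CK embryo. In the endosperm they were 2163, 1842 and 1713 under ABA, 253, 238 and 281 under H2O2, and 199, 249 and 282 in CK. In this last probe set the CK tissues overlap, whereas in the other 3 every CK embryo array lay below every CK endosperm array. The log2 difference of CK embryo from CK endosperm ran from -2.23 for BQ806472 to -0.26 for CD900463, a spread of 1.97, and the ABA difference in the embryo from 2.70 to 4.36.

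The dehydrin WZY1-1 is read by 2 probe sets. On transcript CK163939 the embryo gave 5516, 5218 and 7447 under ABA, 177, 577 and 655 under H2O2, and 525, 593 and 550.4 in CK. Endosperm signals were 6991, 7194 and 7453 under ABA, 573, 460.1 and 591 under H2O2, and 808, 610.2 and 563 in CK. On AF453444 the embryo gave 1097, 1075 and 1133 under ABA, 12.9, 54.6 and 75.7 under H2O2, and 94.3, 56.1 and 54.3 in CK. The endosperm gave 1489, 1026 and 1208 under ABA, 117, 141 and 84.4 under H2O2, and 65.1, 120.2 and 29.5 in CK. In CK the tissues overlapped for both (log2 -0.23 and 0.11). The log2 differences of ABA over CK were 3.43 and 4.06 in embryo and 3.47 and 4.32 in endosperm for the 2 probe sets. Replicate 1 of H2O2 embryo was again the lowest array, and the CK endosperm signals on AF453444 spread from 29.5 to 120.2. On the RefSeq annotation of the assembly IWGSC CS RefSeq v2.1, rab 15B and WZY1-1 lie on the same chromosome with 9 annotated genes between them. Their log2 differences under ABA in endosperm lay apart, at 0.85 for rab 15B and 3.47 and 4.32 for WZY1-1.

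Of the LEA proteins, the group 3 LEA protein of transcript CD913614 was low in both tissues without ABA. In the embryo its signals were 4737, 5159.7 and 3883 under ABA, 143, 25.1 and 132 under H2O2, and 143, 125 and 130.3 in CK. Signals of the endosperm were 4248, 3545 and 3965 under ABA, 319.8, 279 and 295 under H2O2, and 261, 327 and 295 in CK. Its ABA over CK ratio was 34.4 in embryo and 13.3 in endosperm, the largest pair of this class. Replicate 2 of H2O2 embryo, not replicate 1, was the low array here.

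The second group 3 LEA protein (AY148490), LEA3 and LEA2 had smaller folds under ABA in the embryo. For the group 3 LEA protein AY148490 the mean signals were 24558 ± 2338, 4591 ± 354 and 4328 ± 462 in ABA, H2O2 and CK embryo, and 21189 ± 605, 7224 ± 1133 and 5875 ± 802 in the endosperm groups (SD, n = 3 each). LEA3 averaged 23670.0 ± 7434, 4469 ± 801 and 3726 ± 656 in embryo and 16223 ± 1059, 3515 ± 733 and 2735 ± 199 in endosperm, in the same order. LEA2 averaged 3198 ± 61.0, 686 ± 266 and 551 ± 29.1 in embryo and 2940.4 ± 212, 336 ± 32.4 and 281 ± 78.1 in endosperm. The names LEA2 and LEA3 are those of the annotation and do not state a LEA group. Their ABA over CK ratios in embryo and endosperm were 5.68 and 3.63 for AY148490, 6.23 and 5.93 for LEA3, and 5.81 and 10.8 for LEA2, which was among the few members with the larger fold in the endosperm.

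PMA1951 (CD913616) was nearly level between the tissues under ABA and apart without it. Its embryo signals were 18829, 18898 and 17924 under ABA, 1409, 453 and 737 under H2O2, and 642, 668 and 575 in CK. The endosperm arrays read 18042, 17095 and 17211 under ABA, 2633, 2205 and 2377 under H2O2, and 2963, 3201 and 2885 in CK. The ABA over CK ratio was 29.6 in embryo and 5.79 in endosperm. Wrab19 (AF139915), annotated as a cold-responsive LEA and RAB-related protein, set the tissues apart under ABA. The embryo arrays gave 2225, 2025 and 2296 under ABA, 245, 180.3 and 187 under H2O2, and 201, 196 and 199.7 in CK. In endosperm tissue the values were 776, 672 and 756 under ABA, 214, 206 and 265 under H2O2, and 226.13, 237 and 249.5 in CK. Without ABA, Wrab19 lay slightly lower in the embryo in CK and overlapped between tissues under H2O2, and under ABA the embryo arrays all lay above the endosperm arrays, with ratios over CK of 10.96 and 3.09.

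PM 19 (U80037) is an ABA-induced protein of the plasma membrane. In the embryo its signals were 11715, 11966 and 11593 under ABA, 266, 286 and 293 under H2O2, and 385, 381 and 456 in CK. In the endosperm they were 11149, 11040.0 and 11171 under ABA, 4763, 4692 and 4419 under H2O2, and 4072, 3892 and 3767 in CK. Under ABA both tissues met at one level, with the embryo arrays just above the endosperm arrays, and without ABA the embryo lay far below. The ABA over CK ratio was 29.0 in embryo and 2.85 in endosperm. PM 19 was also the member whose H2O2 arrays stood apart from CK in both tissues, lower in embryo (log2 -0.53 ± 0.10) and higher in endosperm (log2 0.24 ± 0.10).

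The COR413 proteins, multispanning membrane proteins named after cold-regulated genes, had modest folds and the reverse tissue order, with the embryo higher. LEA2, LEA3 and the WCOR410 proteins also had higher mean signals in the embryo in each treatment. COR413-TM1, of the thylakoid membrane by its name, is read by 2 probe sets on AY181206. For the at probe set the embryo signals were 2109.9, 2300.0 and 2033 under ABA, 469, 813 and 773 under H2O2, and 665, 780.3 and 739 in CK. Endosperm signals were 1009.9, 984 and 951 under ABA, 389.7, 386 and 311 under H2O2, and 422, 363 and 361 in CK. For the x_at probe set the embryo signals were 2056, 2112 and 1807 under ABA, 454, 776 and 755 under H2O2, and 667, 576 and 658 in CK. The endosperm gave 864, 882 and 808 under ABA, 272, 254 and 366 under H2O2, and 369, 398 and 258 in CK. Both read the embryo above the endosperm in each treatment on every array, and their log2 differences from CK under ABA were 1.56 and 1.65 in embryo and 1.36 and 1.34 in endosperm. The WCOR413-like protein averaged 3690.5 ± 318, 1819 ± 129.48 and 1497 ± 53.1 in ABA, H2O2 and CK embryo and 2967 ± 279, 1005 ± 70.9 and 1006 ± 49.4 in the endosperm groups (SD, n = 3 each), with ABA over CK ratios of 2.46 and 2.94.

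Cold acclimation induced protein 2-1 is read by 2 member probe sets, both far higher in the endosperm. On CA673444 the embryo gave 4516, 4301 and 3817 under ABA, 364, 261 and 333 under H2O2, and 233, 214 and 234 in CK. Signals of the endosperm were 15940.0, 12783 and 13927 under ABA, 7396, 8258 and 6913 under H2O2, and 8124, 7745 and 8355 in CK. On CA669389, the one member that was also on the study's list for H2O2 in the embryo, the embryo gave 1084, 1026 and 955 under ABA, 116, 129.9 and 164 under H2O2, and 111, 97.3 and 46.9 in CK. The endosperm arrays read 2171, 1924 and 1965 under ABA, 1146, 1286 and 1447 under H2O2, and 1370.2, 1386 and 1366 in CK. The ABA over CK ratios were 18.5 and 12.8 in embryo but 1.75 and 1.47 in endosperm, and even under ABA the embryo stayed below the endosperm on every array. For CA669389 the log2 difference of H2O2 from CK in the embryo was 0.76 ± 0.23, and the H2O2 arrays lay just above the highest CK array. Another probe set of this cluster is not a member, and its mean signals were 54.7 ± 37.8, 67.2 ± 68.3 and 75.6 ± 19.9 in the embryo groups and 97.8 ± 8.07, 93.9 ± 48.8 and 54.4 ± 43.5 in the endosperm groups, dim and with wide SDs.

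The 4 WCOR proteins of this class were the members with lower signals under ABA, unlike the WCOR413-like protein. WCOR410 proteins are acidic dehydrins that gather near the plasma membrane in cold-acclimated wheat. For WCOR410c (BJ264076) the embryo gave 2401, 2527 and 2219 under ABA, 9008, 12758 and 12209 under H2O2, and 9498, 10146 and 10269 in CK. In endosperm tissue the values were 1446, 1857 and 1764 under ABA, 3957, 3968 and 3968 under H2O2, and 4578, 4659 and 4669.5 in CK. The ABA signal was 0.239 of CK in embryo and 0.362 in endosperm. For WCOR410b (U73210) the embryo gave 1392, 1312 and 1415 under ABA, 2299, 3458 and 3477 under H2O2, and 3649, 3117 and 3424 in CK. In the endosperm they were 1082, 988 and 1036 under ABA, 2214, 1696 and 1988 under H2O2, and 2342, 2774 and 1730.3 in CK. Its ABA signal was 0.405 of CK in embryo and 0.462 in endosperm, the mildest change of the 4. Dehydrins by family, these 2 went the other way from the dehydrins and Rab proteins above.

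WCOR615 (U73217) was the only one of the 4 that was higher in the endosperm in CK by more than 2-fold. Its embryo signals were 523, 559.8 and 468 under ABA, 879, 2212 and 2104 under H2O2, and 2063, 1973 and 2236 in CK. Endosperm signals were 1193, 1207 and 1163 under ABA, 1958, 2011 and 1803 under H2O2, and 4905, 4859.8 and 4169.7 in CK. In the endosperm the H2O2 arrays also lay below CK (log2 -1.27 ± 0.23), while in the embryo 2 of the 3 H2O2 arrays lay among the CK arrays and replicate 1 below them. For WCOR825 (U73215) the embryo gave 464, 509.8 and 428 under ABA, 754, 1156 and 1108 under H2O2, and 1252, 1263 and 1248 in CK. The endosperm gave 528, 489.9 and 516 under ABA, 1388, 1691 and 1440.5 under H2O2, and 1689, 1639 and 1393 in CK. The ABA signal was 0.247 and 0.256 of CK for WCOR615 and 0.371 and 0.326 for WCOR825, in embryo and endosperm.

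Other probe sets of these WCOR genes were read for comparison and are not members. Another probe set of the WCOR410c gene averaged 819 ± 93.7, 1203 ± 209 and 1122 ± 67.9 in ABA, H2O2 and CK embryo and 221 ± 17.5, 421 ± 33.2 and 549 ± 26.8 in the endosperm groups. Under ABA it was called lower in the endosperm, at 0.401 of CK, and was not called in the embryo, at 0.728 of CK, where the member probe set showed the lower ratio of 0.239. The x_at probe set of the WCOR615 gene averaged 323 ± 22.2 in ABA embryo and 274 ± 60.5 in CK embryo, and 244 ± 71.4 and 369 ± 84.8 in the endosperm, so it did not show the lower ABA level of the s_at probe set in the embryo. Another probe set of the WCOR825 gene averaged 36.4 ± 6.71 in ABA embryo and 132 ± 25.3 in CK embryo, and 43.4 ± 26.7 and 112 ± 29.4 in the endosperm, and its ratios, not called, of 0.276 and 0.33 lay near those of the member.

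Embryo and endosperm were then compared within each treatment. In H2O2 and CK most members were lower in the embryo, and under ABA the tissues lay closer together. All 24 members stood on the study's list for ABA in the embryo, whose arrays enter the ABA and CK tissue differences. A place there favours a low CK embryo signal that rises under ABA, so the ABA and CK values are given as a description. The median log2 difference of embryo from endosperm was 0.08 under ABA, -0.62 under H2O2 and -0.38 in CK over the members, and 0.05, 0.18 and -0.01 over all probe sets tested. Its median absolute size was 0.32 under ABA, 1.31 under H2O2 and 1.06 in CK over the members, against 0.51, 0.65 and 0.57 over all probe sets. Over all probe sets the split of calls depends on the scaling. It was 7590 higher and 5579 lower in embryo under H2O2 with the deposited scaling, against 5657 and 6809 with arrays scaled to their 75th percentile, and for ABA it was 5625 and 3703 against 3765 and 4929, for CK 6518 and 4034 against 4514 and 5446. The members' counts moved by at most 1 call in either direction. Of the 13 members that differed by more than 1 on the log2 scale between CK embryo and CK endosperm, 11 did so under H2O2 and 2 under ABA. Among all probe sets, 15010 differed by more than 1 in CK, and 7258 of these did so under H2O2. The absolute difference under ABA was smaller than that in CK for 16 of the 24 members and smaller than that under H2O2 for 18. Over all probe sets the difference under ABA was smaller than that under H2O2 for 34044 of 57992. The count against CK was not made over all probe sets, nor was the count under ABA of those over 1 in CK. At least 2-fold apart between the tissues were 20.8%, 54.2% and 54.2% of the members under ABA, H2O2 and in CK. Over all probe sets these shares were 21.8%, 31.3% and 25.9%. Without replicate 1 of H2O2 embryo the median absolute difference of the members under H2O2 was 1.26, 11 of the 13 again differed by more than 1, and 20 had the smaller difference under ABA. Over all probe sets of that fit, 7248 of the 14938 over 1 in CK were also over 1 under H2O2. The smaller difference was under ABA for 32482 of 57084.

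**Figure D3:**
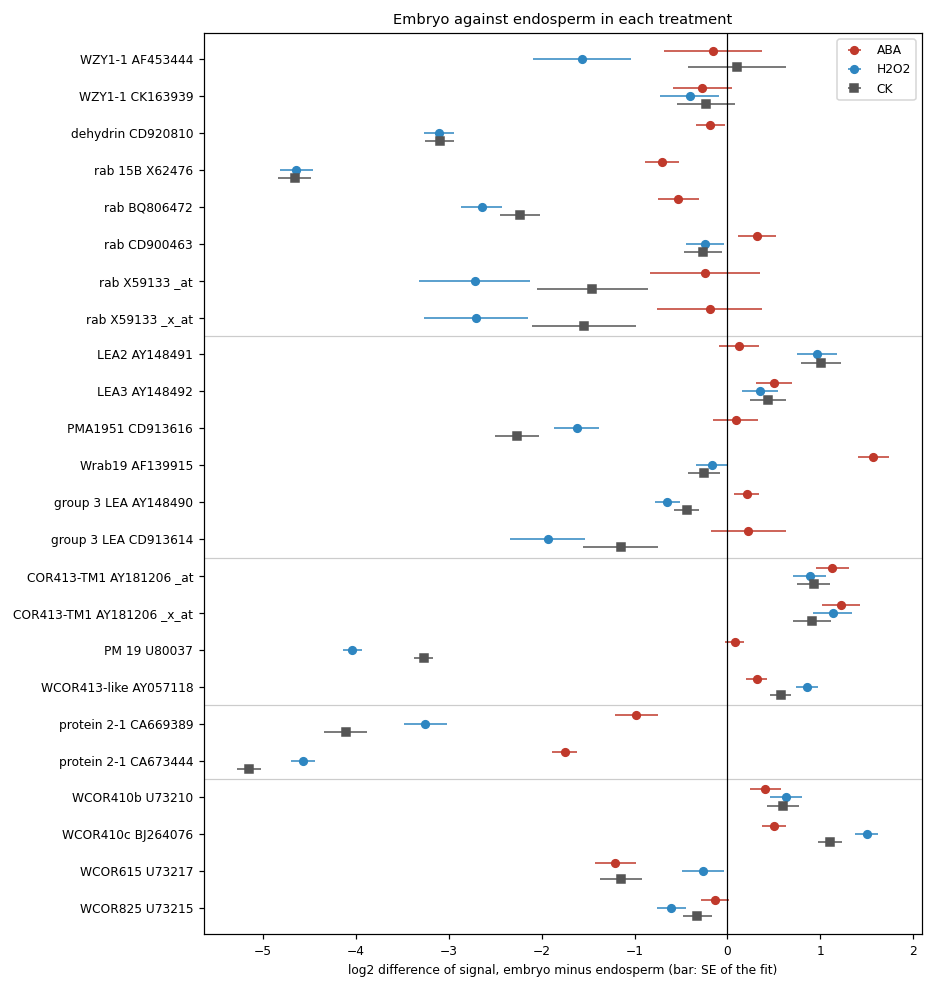
Log2 difference of the signal of each probe set, embryo minus endosperm, under ABA, H2O2 and in CK; bars are the SE of the fit and grey lines separate the classes of proteins. Values run down to -5.15 in CK and -4.64 under H2O2, but no lower than -1.75 under ABA. The COR413 and WCOR410 proteins, LEA2 and LEA3 lie above 0 in all 3.

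H2O2 embryo against H2O2 endosperm compares none of the ABA or CK arrays that put these members on the ABA lists. Its tests are given for 23 members, all but protein 2-1 on CA669389, which the list for H2O2 in the embryo also held. The choice of members can still reach this contrast. A place on the ABA list for the embryo favours a low CK embryo signal, and most members lay near their CK levels under H2O2. The p-values and the count of members lower in the embryo take no account of this. At an adjusted p under 0.05, 6 of the 23 were higher and 12 lower in the embryo, and 5 were not called, beside 13.1% and 9.62% of all 57992 probe sets (22.7% in either direction). The estimate of the spread is shared over all 18 arrays. Fitted on the 6 H2O2 arrays alone, 3 of the 23 were called higher and 7 lower, beside 7.45% and 6.03% of all probe sets. The 8 calls lost were those of both probe sets on X59133, WZY1-1 on AF453444, the group 3 LEA protein CD913614, LEA2, the at probe set of COR413-TM1, WCOR410b and WCOR825, with adjusted p between 0.0659 and 0.23 in that fit. Without replicate 1 of H2O2 embryo the counts over all 24 members were 6 higher and 12 lower, against 6 and 13 with it, beside 14.4% and 11.2% of all probe sets, and the median log2 difference was -0.55. Leaving out that array shifted 4 members by more than 0.5 (both probe sets on X59133 and both of WZY1-1) and the other 20 by at most 0.44.

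The dehydrins and Rab proteins were called lower in H2O2 embryo in 6 of 8 probe sets, beside 9.62% of all probe sets. Of the 8, 4 read the rab gene and 2 read WZY1-1, so they are not 8 separate genes. Fitted on the 6 H2O2 arrays alone, both probe sets on X59133 and WZY1-1 on AF453444 lost the call. For rab 15B the log2 difference was -4.64 ± 0.18 (adjusted p = 8.42e-14), and for the dehydrin CD920810 it was -3.10 ± 0.16 (adjusted p = 6.35e-12). For the rab gene it was -2.65 ± 0.22 on BQ806472 (adjusted p = 1.16e-08), -2.72 ± 0.60 on the at probe set of X59133 (adjusted p = 0.00178) and -2.71 ± 0.56 on the x_at probe set (adjusted p = 0.00108). Without the outlying array the values on X59133 were -1.48 and -1.52, still lower in the embryo (adjusted p = 1.68e-06 and 9.46e-09). On CD900463 the difference was -0.24 ± 0.21 and was not called (adjusted p = 0.468). WZY1-1 on AF453444 was called at -1.57 ± 0.53 (adjusted p = 0.0363) and lost the call without the outlying array (-0.80, adjusted p = 0.175), and on CK163939 the difference of -0.41 ± 0.31 was not called (adjusted p = 0.412) and turned to 0.19 without that array.

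Of the LEA proteins, 3 were lower in H2O2 embryo than in H2O2 endosperm. The log2 difference was -1.62 ± 0.24 for PMA1951 (adjusted p = 2.75e-05), -1.93 ± 0.40 for the group 3 LEA protein CD913614 (adjusted p = 0.00116) and -0.65 ± 0.14 for the group 3 LEA protein AY148490 (adjusted p = 0.00118). LEA2 was higher in the embryo (0.97 ± 0.22, adjusted p = 0.00216), while LEA3 (0.35 ± 0.19, adjusted p = 0.222) and Wrab19 (-0.17 ± 0.17, adjusted p = 0.558) were not called. Of the membrane proteins, PM 19 was lower in the embryo (-4.04 ± 0.10, adjusted p = 9.96e-17), and the WCOR413-like protein (0.86 ± 0.11, adjusted p = 8.25e-06) and both COR413-TM1 probe sets (0.88 ± 0.18, adjusted p = 0.000775, and 1.13 ± 0.21, adjusted p = 0.000299) were higher. Protein 2-1 on CA673444 was lower (-4.57 ± 0.13, adjusted p = 6.25e-16), and on CA669389 the difference, given without a test, was -3.25 ± 0.23. Of the WCOR proteins, WCOR410c (1.498 ± 0.13, adjusted p = 1.84e-08) and WCOR410b (0.63 ± 0.17, adjusted p = 0.0092) were higher in the embryo, WCOR825 was lower (-0.60 ± 0.15, adjusted p = 0.00611), and WCOR615 was not called (-0.27 ± 0.23, adjusted p = 0.467; 0.17 without the outlying array).

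In CK, the tissue contrast used arrays that had part in choosing the members, and its values are given without p-values. There 6 members were called higher and 9 lower in the embryo, beside 11.2% and 6.96% of all probe sets (18.2% in either direction). The largest differences were those of protein 2-1 on CA673444 (-5.15 ± 0.13), rab 15B (-4.66 ± 0.18) and protein 2-1 on CA669389 (-4.11 ± 0.23), followed by PM 19 (-3.27 ± 0.10), the dehydrin CD920810 (-3.10 ± 0.16) and PMA1951 (-2.27 ± 0.24). The CK and H2O2 tissue contrasts share no array, and 23 of the 24 members had the same sign in both, as had 63.8% of all probe sets tested. Without replicate 1 of H2O2 embryo it was 21 of the 24, beside 66.8% of all probe sets. WZY1-1 on AF453444 had opposite signs either way, at -1.57 under H2O2 (-0.80 without that array) and 0.11 in CK. WZY1-1 on CK163939, at 0.19 and -0.23, and WCOR615, at 0.17 and -1.15, had opposite signs under H2O2 and in CK without the array. Across the 24 probe sets, several of which read the same gene, the 2 sets of differences correlated with r = 0.942, and 0.957 without the array, against 0.504 and 0.553 across all probe sets. Without replicate 1 of H2O2 embryo, which enters the shared estimate of spread, 6 members were called higher and 13 lower in CK, beside 15.8% and 11% of all probe sets (26.8% in either direction). The added ones were both probe sets on X59133, WCOR825 and the group 3 LEA protein CD913614.

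Under ABA, 4 members were called higher and 4 lower in the embryo, beside 9.7% and 6.39% of all probe sets (16.1% in either direction), again without p-values because the ABA arrays chose the members. Higher in the embryo were Wrab19 (1.57 ± 0.17), both COR413-TM1 probe sets (1.22 ± 0.21 and 1.13 ± 0.18) and WCOR410c (0.50 ± 0.13). Lower were both probe sets of protein 2-1 (-1.75 ± 0.13 on CA673444 and -0.98 ± 0.23 on CA669389), WCOR615 (-1.21 ± 0.23) and rab 15B (-0.71 ± 0.18). The dehydrin CD920810 (-0.18 ± 0.16), PM 19 (0.08 ± 0.10), PMA1951 (0.09 ± 0.24) and the group 3 LEA protein CD913614 (0.22 ± 0.40), all lower in CK embryo than in CK endosperm by more than 1, were not called under ABA. Without replicate 1 of H2O2 embryo 7 were called higher and 5 lower, beside 14.1% and 10% of all probe sets (24.1% in either direction).

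Related genes outside the members were read from the platform annotation, by gene symbol and RefSeq synonym. The search gave 6 probe sets, 5 for Em, the group 1 LEA protein of cereal embryos, and 1 for COR410. All 5 Em probe sets stand on the study's lists too, so their ABA differences are a description. The 5 Em probe sets were called higher under ABA in both tissues, by 5.84 to 22.7-fold in embryo and 3.42 to 7.22-fold in endosperm. COR410 was called in neither, with ABA over CK ratios of 1.16 in embryo and 0.43 in endosperm. Its group means ran only from 25.7 in ABA endosperm to 70.8 in CK endosperm. Single arrays ran from 6.20 in CK embryo to 121 in CK endosperm, so its response to ABA could not be read. The x_at probe set on transcript BJ290016, which had the largest folds, averaged 35544 ± 1112, 1902 ± 735 and 1568 ± 75.9 in ABA, H2O2 and CK embryo, against 12849 ± 1466, 1537 ± 59.6 and 1784 ± 263 in the endosperm groups (SD, n = 3 each). The s_at probe set on the same transcript averaged 55539 ± 1794, 4540.4 ± 1415 and 6195 ± 173 in the embryo groups and 27049 ± 1722, 4935 ± 137 and 6293 ± 60.5 in the endosperm groups, with folds of 8.96 and 4.29 under ABA. In CK the 5 log2 differences of embryo from endosperm lay between -0.18 and -0.02, with 0 called, and under ABA all 5 were called higher in the embryo, by 0.72 to 1.47. In H2O2, 2 of the 5, both on CD490538, were called higher in embryo than in endosperm (log2 0.52 and 0.41), and the same 2 were called lower in H2O2 endosperm than in CK endosperm (-0.76 and -0.80). A symbol search for ABA signalling, ABA metabolism, CBF and DREB factors and seed maturation proteins gave no probe set of such a gene. Only 1273 probe sets carry a platform symbol, beside 61179 wheat probe sets on the array. The empty result therefore does not mean that the array lacks such genes, and the study's lists name some, given below.

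The study's lists themselves name further ABA-related genes, and 14 such probe sets were read, chosen on these samples and therefore without independent weight. Under ABA 13 of the 14 were called higher in embryo and 11 in endosperm, 0 lower, with folds of 2.17 to 21.6 and 1.31 to 8.34. Among them Wcor18 is read by both an x_at and an s_at probe set, so the 14 are not 14 separate genes. Its folds were 21.6 and 17.1 in embryo and 4.67 and 4.60 in endosperm, in that order. Wrab15 and Wrab18 had folds of 19.9 and 13.7 in embryo and 8.34 and 3.77 in endosperm. WCOR14a had folds of 4.50 in embryo and 3.86 in endosperm, so a WCOR name did not go with a lower signal throughout. The type 2C phosphatases PP2C and TaABI1 and the bZIP factors ABFB and WABI5 had folds of 6.72, 3.91, 3.04 and 2.91 in embryo and of 1.80, 4.90, 1.32 and 1.80 in endosperm. Under H2O2 0 of the 14 were called in the embryo, and 1 was called higher and 1 lower in the endosperm.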

How the data were processed

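Signal intensities of 18 Affymetrix Wheat Genome Arrays were deposited by the authors as linear values of Microarray Suite 5.0 (MAS5), scaled to a common target signal, with 1 value for each probe set and array. Beside 61179 wheat probe sets, the arrays hold 111 Affymetrix controls, which were left out. Signals below 10 were set to 10, probe sets with a signal of at least 20 on 3 or more arrays were kept (57992), and values were taken to log2 without further normalization. All 6 groups were fitted as group means with lmFit and eBayes (trend) of limma 3.58.1 in R 4.3.3, and p-values were adjusted over all 57992 probe sets (Benjamini-Hochberg, threshold 0.05). The number of arrays, 3 a group, limits the precision. The script was tested on simulated data.

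The members and lists were chosen with earlier results of these data known. Values on every array are given for the 4 probe sets chosen by identifier, the 4 WCOR proteins lower under ABA, genes read by over 1 probe set, and the 3 members with the largest called tissue difference in each treatment. PMA1951 is given on every array beside this rule, chosen after its values were seen. Related genes were to be found by description, but the platform table gives symbols only, so symbols and RefSeq synonyms (IWGSC CS RefSeq v2.1) were used. Of the 24 members, 19 have a gene identifier in the platform table. The alternatives tried were other floors, filters, scalings, thresholds, variance models, fits of 6 arrays, a replicate block and leaving out each array. The values used here carry no scan or slide record, so no batch was tested. Sequences of the members were not used here.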

Additional observations from a re-analysis of the deposited data

Results flagged for a closer look

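For 3 members the difference between embryo and endosperm had opposite signs in different treatments on every array, and none of these differences between treatments was tested. The same count was not made over all probe sets. The members were chosen on ABA against CK, which enters these signs, so the count is a description. PM 19 was higher in the embryo by 0.080 (log2) under ABA, against a log2 difference of -4.04 under H2O2 and -3.27 in CK. The ABA value turns to -0.11 with arrays scaled to their 75th percentile. Wrab19 had a log2 difference of embryo from endosperm of 1.57 under ABA and of -0.26 in CK. The group 3 LEA protein AY148490 had 0.21 under ABA, against -0.65 under H2O2 and -0.44 in CK.

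PM 19 also moved in opposite directions under H2O2. Its log2 difference of H2O2 from CK was -0.53 in embryo and 0.24 in endosperm, with no overlap between H2O2 and CK arrays in either tissue, and this difference between tissues was not tested either.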

How the results depend on the processing

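Counts of members called are given as higher and lower in the first-named group. When each comparison was fitted on its own 6 arrays, H2O2 embryo against H2O2 endosperm gave 3 higher and 8 lower, ABA embryo against ABA endosperm 8 higher, H2O2 embryo against CK embryo 0 lower, and H2O2 endosperm against CK endosperm 1 higher and 3 lower. Over all probe sets that fit called 6723 in place of 13169 between the H2O2 tissues, 8449 in place of 3330 and 6969 in place of 3982 for ABA against CK in embryo and endosperm, and 5 in place of 308 and 6232 in place of 3167 for H2O2 against CK. With a call that also needed a 2-fold difference, 2 members were higher in embryo under H2O2, 2 lower under ABA and 2 higher in CK, and 0 were lower in H2O2 embryo than in CK embryo. Without the variance trend, or at an adjusted p under 0.01, that last count was 0 as well.

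Leaving out 1 array at a time gave 5 to 6 higher and 12 to 13 lower for H2O2 embryo against H2O2 endosperm, 4 to 7 and 4 to 5 for ABA embryo against ABA endosperm, and 5 to 6 and 8 to 13 for CK embryo against CK endosperm. The upper ends of 7 and 5 under ABA and of 13 in CK came without replicate 1 of H2O2 embryo, where calls over all probe sets were 24.1% in place of 16.1% for ABA and 26.8% in place of 18.2% for CK. It gave 20 and 4 for ABA against CK in embryo, 17 to 19 and 4 in endosperm, 0 to 1 and 0 to 1 for H2O2 against CK in embryo, and 0 to 1 and 1 in endosperm. Under H2O2 the tissue difference of WZY1-1 on CK163939 ran from -0.75 to 0.19 and that of WCOR615 from -0.50 to 0.17, the upper value of each without replicate 1 of H2O2 embryo. In CK that of WZY1-1 on AF453444 ran from -0.42, without replicate 3 of CK endosperm, to 0.59, and was -0.15 without replicate 1 of CK embryo.

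Small tissue differences that were not called changed sign with the scaling. With the 75th percentile, PM 19 (-0.11), LEA2 (-0.065) and PMA1951 (-0.10) did so under ABA and WZY1-1 on AF453444 (-0.082) in CK. With quantile normalization, the dehydrin CD920810 (0.027) and the x_at probe set of rab on X59133 (0.073) did so under ABA. With a floor and filter of 110, chosen after seeing the data, WZY1-1 on AF453444 was at -0.043 in CK. The causes were not tested.

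The replicate block left the tissue counts at 6 and 13 under H2O2, 4 and 4 under ABA, and 6 and 9 in CK. Deviations of arrays with the same replicate number correlated between -0.037 and 0.046, so the numbers were not taken as pairs. Signals near the floor of 10 have no order, and 3 arrays a group limit what small differences can show.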
